A study of Homo sapiens with 4 samples.

Results

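The EGF-family ligands and the proteases that release them were examined in HuCCT1 cells, a human intrahepatic cholangiocarcinoma cell line, after 4 transfections. The ligands were EGF, TGFA, AREG, EREG, HBEGF, BTC, EPGN and NRG1, and the sheddases were ADAM10 and ADAM17. Members were chosen by name, as every non-control probe whose transcript accession belonged to one of these 10 genes, and the rule itself used no measured value. The 10 genes were covered by 14 of the 34127 probes of the array, 11 for the 8 ligands and 3 for the 2 sheddases. TGFA, AREG, NRG1 and ADAM10 had 2 probes each, the other 6 genes had 1, and each of these probes had 1 spot per array. Cells received Pre-miR-376c (labelled miR-376c), Pre-miR negative control (miControl), a siRNA against GRB2 (siGRB2) or a siRNA negative control (siControl), each at 30 nM. After 24 h all of them, the controls included, were kept for a further 24 h with 5 ng/ml EGF at 0.1% serum, so there was no array of cells without added EGF. RNA of each transfection was hybridized to 1 array. There was thus no replicate of any condition, so no test between conditions, p-value or SD could be given. Each difference is set beside the scanner software's own error, which is an estimate for the spots and does not cover the variation between cultures. For bright probes that error was the same on every array (0.144 log2 units for AREG), so it served as a fixed limit and not as a measured spread.

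Ligands of the EGF family are made as membrane-anchored precursors, and proteases cut them at the cell surface to release the part that binds the ErbB receptors (EGFR and its relatives ERBB2, ERBB3 and ERBB4). ADAM17 is the main sheddase of TGF-alpha, amphiregulin (AREG), epiregulin (EREG) and HB-EGF, and ADAM10 is that of EGF and betacellulin (BTC). Activated EGFR signals through the adaptor GRB2 to RAS and the MAP kinases, and AREG, EREG, HBEGF and TGFA are known to be transcribed in response to that pathway, which closes an autocrine loop. NRG1 (neuregulin 1) binds ERBB3 and ERBB4 rather than EGFR. Biliary epithelium and cholangiocarcinoma cells are known to make several of these ligands. The study asked which genes respond when miR-376c is restored and when its target GRB2 is silenced, and for the ligands and sheddases the arrays give the mRNA side of that question only, since shedding itself is not seen in RNA.

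The microRNA that was transfected is shown first because it defines that condition, with its seed (bases 2 to 8) in capitals. The mature sequence was read from RefSeq and lies at chr14:101039732-101039752 on the plus strand of GRCh38.p14.
hsa-miR-376c-3p: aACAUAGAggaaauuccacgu

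EPGN, EREG, AREG and BTC follow each other in this order on chromosome 4 in the RefSeq gene table. The windows below show the stretches of the member promoters that held a searched motif, because AREG and EREG are the ligands whose levels followed each other. A promoter was taken as 250 bases before to 50 after the start of the gene, and 9 of the 10 genes had 1 or more of them, 10 promoters in all. NRG1 had no entry. All windows are on the plus strand of GRCh38.p14 in the direction of the gene, with the motif in capitals: EPGN at chr4:74308431-74308456, EREG at chr4:74365103-74365128, AREG at chr4:74445097-74445122 and chr4:74445061-74445088, and EGF at chr4:109912856-109912882.
EPGN, TATAAA, 29 bases before the start: cttcatgaaaTATAAAtgcaacaaag
EREG, TATAAA, 32 bases before the start: ggctccctagTATAAAgttcgcagca
AREG, TATAAA, 29 bases before the start: cggctgagccTATAAAgcggcaggtg
AREG, TGACGTCA, 65 bases before the start: ggccgggcctTGACGTCAtgggctgcgg
EGF, TGANTCA, 17 bases before the start: aaagcaaagcTGAGTCAttccactttt

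The motif TGANTCA (the AP-1 site) was searched on both strands, and 7.71% of 35116 promoters of the same length held it. TGACGTCA (the cAMP response element), held by 1.85% of them, and TATAAA (the TATA box), held by 11.5% on either strand and by 7.33% on the strand of the gene, were searched after the member sequences had been seen. TGACGTCA and TATAAA do not overlap in AREG. EREG and AREG thus share a TATAAA at nearly the same distance from their starts with EPGN, whose probe gave no signal, and neither holds TGANTCA. A match is a description of these letters and not of a site in use.

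Levels are given as log2 processed signal minus the 75th percentile of the array, so that 0 is the signal below which 75% of the spots lay, and each probe is compared only with itself. A probe counted as detected when the scanner software flagged it well above background. Of the 14 member probes, 12 were detected on all 4 arrays, which covers 8 of the 10 genes, and so were 21239 of all 34127 probes. None was saturated. The arrays detected 21811 to 24119 probes, and their 75th percentile signals ranged from 1719 to 2689. Of the biliary epithelial markers, all 8 probes of KRT7, KRT19, KRT8, KRT18, EPCAM and CDH1 were detected on every array. ALB and APOB (hepatocyte) and COL1A2 and DCN (fibroblast) were not detected on any, whereas probes of APOA1, PTPRC, VWF, CDH5 and COL1A1 were detected on all 4 arrays. GRB2, the target of both agents, had 1 probe, at 0.07 with Pre-miR-376c, 0.62 with Pre-miR negative control, -0.65 with siGRB2 and -0.10 with siRNA negative control. It was lowest on the array labelled siGRB2, with a log2 difference of -0.55 to its control that turned to 0.12 after normexp background correction. That correction drew levels on the siGRB2 array toward 0, raising dim probes and lowering bright ones. After it 64.1% of all probes were at least 2-fold apart from siRNA negative control, 12455 higher and 2523 lower. The median log2 difference was 1.03. A change with siGRB2 under normexp, here and below, is therefore not particular to a probe. With Pre-miR-376c the log2 difference to its own control was also -0.55. The Pre-miR-376c array lay above siRNA negative control, with a log2 difference of 0.17 that became -0.01 under a median shift. The controls themselves differed by -0.72, siRNA negative control being the lower.

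**Figure D1:**
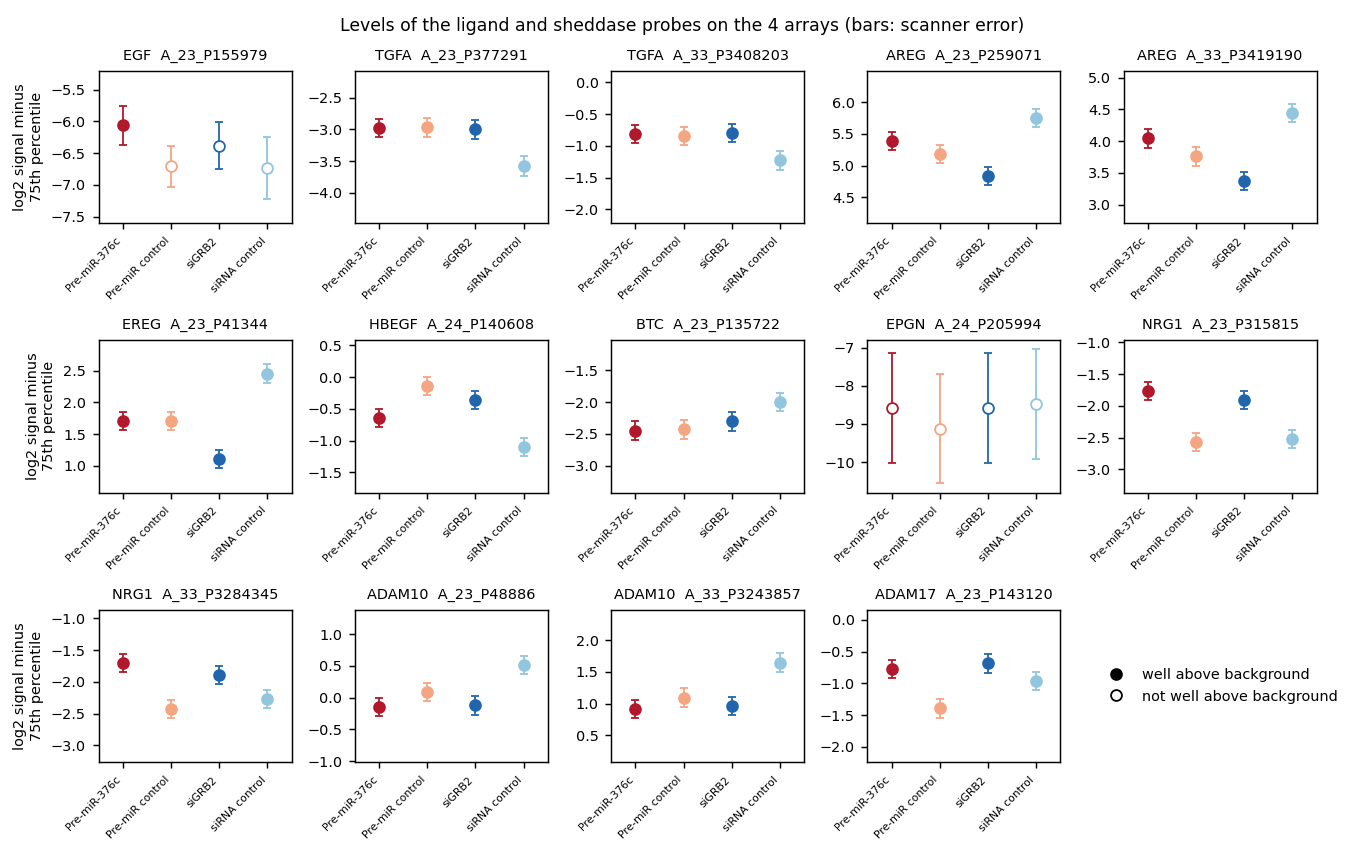
Level (log2 signal minus the array's 75th percentile, vertical axis) of each of the 14 member probes on the 4 arrays (horizontal axis), with the scanner software's error as bars and open circles where the probe was not well above background. All axes span 2.4 log2 units except that of EPGN, which spans 4; AREG and EREG are highest with siRNA negative control and lowest with siGRB2, and NRG1 is higher with both treatments than with both controls.

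Among the ligands of EGFR, AREG and EREG differed most with siGRB2. Amphiregulin had levels of 5.38 with Pre-miR-376c, 5.18 with Pre-miR negative control, 4.84 with siGRB2 and 5.75 with siRNA negative control on probe A_23_P259071. The probe A_33_P3419190 of the same gene read 4.04, 3.76, 3.38 and 4.45 in the same order. Both probes were thus lowest with siGRB2 and highest with siRNA negative control. The difference between siGRB2 and its control was -0.91 and -1.07 on the log2 scale, or 53.2% and 47.6% of the control signal, with a scanner error of 0.20 on each.

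Epiregulin (A_23_P41344) had levels of 1.71 with Pre-miR-376c, 1.70 with Pre-miR negative control, 1.10 with siGRB2 and 2.45 with siRNA negative control. The array order was again siGRB2 lowest and siRNA negative control highest, with the other 2 arrays level with each other. With siGRB2 EREG was at 39.3% of siRNA negative control, a log2 difference of -1.35. It spanned 1.35 log2 units over the 4 arrays, the widest range of any member detected on all of them. EREG and A_33_P3419190 of AREG were the only 2 of 12 member probes at least 2-fold apart from siRNA negative control with siGRB2, where 9.81% of all probes were (3.11% lower and 6.7% higher).

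The size of this difference depended on which control was used. Against Pre-miR negative control the log2 difference with siGRB2 was -0.34 and -0.38 for the 2 AREG probes and -0.60 for EREG, and the controls themselves differed, siRNA negative control being higher by 0.57 and 0.69 for AREG and by 0.75 for EREG. Against Pre-miR-376c, the siGRB2 array was lower by similar amounts, with log2 differences of -0.54 and -0.67 for AREG and -0.60 for EREG. The siGRB2 array was therefore below each of the other 3 for all 3 probes, and every one of these differences was larger than the scanner error of 0.20. Ranked among the 21239 probes detected on all arrays, the difference between siGRB2 and siRNA negative control lay at percentile 3.9 and 2.0 for AREG and 0.5 for EREG. Against Pre-miR negative control the percentiles were 9.1, 7.2 and 2.5. A probe with siRNA negative control highest and siGRB2 lowest was not rare, since 9.61% of the 21239 probes had that order, beside 3 of the 12 member probes. The order held for all 3 probes under each of the other 5 ways of scaling the arrays. Normexp background correction, 1 of these, is no separate check, because it also moved bright levels on the siGRB2 array toward 0. That of AREG A_23_P259071 went from 4.84 to 3.71.

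With Pre-miR-376c, AREG and EREG did not follow that course. The log2 difference to Pre-miR negative control was 0.20 and 0.28 for AREG and 0.00 for EREG. Only the second AREG probe moved by clearly more than the scanner error. Against siRNA negative control the same array was lower, by log2 differences of -0.37 and -0.40 for AREG and -0.75 for EREG, so the direction for Pre-miR-376c rested on the choice of control.

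TGF-alpha (TGFA) was set apart on a different array. Its probes read -2.98 and -0.81 with Pre-miR-376c, then -2.97 and -0.84 with Pre-miR negative control, and -3.00 and -0.80 with siGRB2, but -3.58 and -1.23 with siRNA negative control. The siRNA negative control array was thus lower, and the others were level. The log2 difference between siGRB2 and siRNA negative control was 0.58 and 0.43, and between siGRB2 and Pre-miR negative control it was -0.03 and 0.04, below the scanner error. With Pre-miR-376c it was -0.01 and 0.04 against its own control, and the sign of the first of these changed with the scaling.

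HB-EGF (HBEGF, A_24_P140608) had levels of -0.64 with Pre-miR-376c, -0.14 with Pre-miR negative control, -0.36 with siGRB2 and -1.10 with siRNA negative control. The controls held the highest and the lowest value, 0.96 log2 units apart, with both treatments between them. The log2 difference was -0.51 for Pre-miR-376c but 0.74 for siGRB2 against their own controls, and it turned to 0.45 and -0.22 against the other control. No direction for HBEGF was therefore independent of the control.

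Betacellulin (BTC, A_23_P135722) read -2.45 with Pre-miR-376c, -2.43 with Pre-miR negative control, -2.30 with siGRB2 and -2.00 with siRNA negative control. Its span of 0.45 log2 units was among the narrowest of the members. The log2 difference was -0.02 for Pre-miR-376c, within the scanner error and of either sign depending on the scaling. It was -0.30 for siGRB2, which turned to 0.13 against Pre-miR negative control and to 1.28 after normexp background correction.

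EGF itself and EPGN were at the limit of the arrays. The EGF probe (A_23_P155979) was well above background only with Pre-miR-376c, at a level of -6.06, and read -6.71 with Pre-miR negative control, -6.38 with siGRB2 and -6.74 with siRNA negative control, all of them not well above background. For a fold, a dim array counts at its own signal or at that of its dimmest detected probe, whichever was higher. On that reading EGF mRNA was 1.56-fold higher with Pre-miR-376c than with Pre-miR negative control, which counted at its own signal. It was 1.19-fold higher than with siRNA negative control. Neither value is a firm minimum. The log2 differences behind them were 0.64 and 0.255, with scanner errors of 0.45 and 0.58. The latter thus lay within its error, and the former became 0.37 after normexp background correction. The EGF protein added to the medium is not measured by this probe. Epigen (EPGN, A_24_P205994) read -8.47 to -9.13 and was not well above background on any array.

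**Figure D2:**
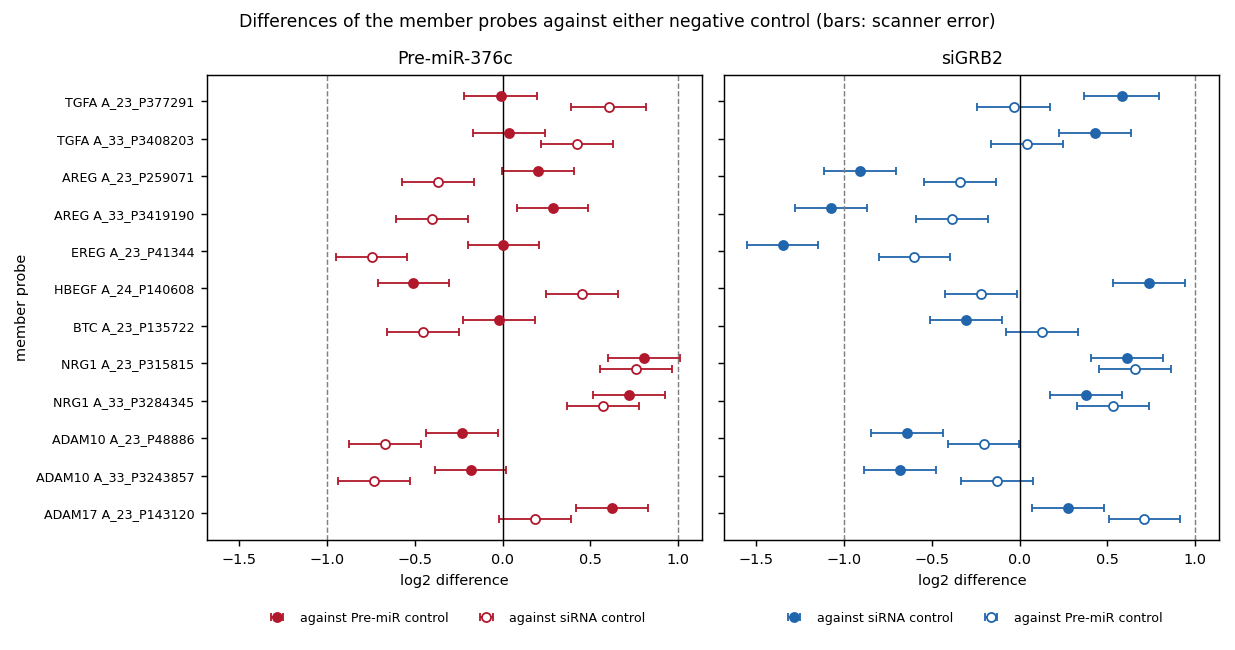
Log2 difference (horizontal axis) of each member probe detected on all 4 arrays (vertical axis) for Pre-miR-376c, left, and siGRB2, right, against its own control (filled) and the other control (open), with scanner error as bars and dashed lines at 2-fold. Only AREG A_33_P3419190 and EREG lie past 2-fold, both with siGRB2 against siRNA negative control, and NRG1 lies to the right of 0 in all 4 comparisons.

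NRG1 was the ligand with the most even difference to both controls. Its probe A_23_P315815 read -1.76 with Pre-miR-376c and -1.91 with siGRB2, beside -2.57 with Pre-miR negative control and -2.52 with siRNA negative control. A_33_P3284345, designed to the same transcript accession, read -1.70 and -1.89 with the treatments and -2.42 and -2.27 with the controls. Both treated arrays lay above both control arrays, with gaps of 0.61 and 0.38 log2 units between the groups.

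Against their own controls the log2 differences of NRG1 were 0.80 and 0.72 for Pre-miR-376c and 0.61 and 0.38 for siGRB2. Against the other control they were 0.76 and 0.57 for Pre-miR-376c and 0.66 and 0.53 for siGRB2. All 8 were positive and larger than the scanner error, and all were under 2-fold. Ranked among the 21239 probes, those to the own control lay at percentile 98.9 and 98.4 for Pre-miR-376c but at 80.8 and 66.1 for siGRB2. Only the last of these is not far from the middle. Those to the other control lay at 92.2 and 84.8 for Pre-miR-376c and at 97.7 and 95.8 for siGRB2. The controls differed from each other by 0.04 and 0.15 only. Among all probes detected on all arrays, 2.78% had both treatments above both controls by a gap over 0.3, beside 2 of the 12 member probes, which are the NRG1 probes and stand for 1 gene. A gap over 0.2 was found for 6.09%, and neither limit had been planned. The gap of A_33_P3284345 fell to 0.17 after quantile normalization and to 0.07 under a median shift. Under a median shift in place of the percentile the differences for siGRB2 were smaller, 0.31 and 0.07, and still positive. The NRG1 probes kept both treatments above both controls under each of the other 5 scalings. Normexp background correction, 1 of these, is no separate check, because it moved dim levels on the siGRB2 array toward 0. The siGRB2 level of TGFA A_23_P377291, for example, went from -3.00 to -0.37.

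The sheddases lay on opposite sides of the controls, by gaps close to the scanner error. ADAM10 read -0.15 and 0.91 with Pre-miR-376c, against 0.08 and 1.10 with Pre-miR negative control, -0.12 and 0.97 with siGRB2, and 0.52 and 1.65 with siRNA negative control, for probes A_23_P48886 and A_33_P3243857. Both treatments lay below both controls on both probes, by gaps of 0.21 and 0.13. The log2 difference to the own control was -0.23 and -0.18 for Pre-miR-376c, beside -0.64 and -0.68 for siGRB2. Against Pre-miR negative control the difference for siGRB2 was -0.21 and -0.13, close to the scanner error of 0.20 or below it, and siRNA negative control exceeded Pre-miR negative control by 0.44 and 0.55. The larger part of the siGRB2 difference in ADAM10 was thus matched by the difference between the controls. This grouping of the arrays was kept under each of the other 5 scalings, though normexp background correction moved the siGRB2 level of A_33_P3243857 from 0.97 to 0.56. Both treatments lay below both controls for 13.6% of all probes, beside 2 of the 12 member probes.

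ADAM17 (A_23_P143120) read -0.77 with Pre-miR-376c, -1.39 with Pre-miR negative control, -0.68 with siGRB2 and -0.96 with siRNA negative control. Pre-miR negative control was the lowest of the 4 arrays, and the treatments lay above both controls by a gap of 0.19. The log2 difference came to 0.62 for Pre-miR-376c and 0.28 for siGRB2 against their own controls, and the latter changed to -0.03 under a median shift, which also ended the separation from the controls. Against the other control it came to 0.19 for Pre-miR-376c, below the scanner error of 0.20, and 0.71 for siGRB2. The values that exceeded 0.5 were thus those measured against Pre-miR negative control. Both treatments lay above both controls for 21.3% of all probes, beside 4 of the 12 member probes (NRG1, ADAM17 and, by 0.04, 1 TGFA probe).

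Counted over the whole set, no member reached 2-fold with Pre-miR-376c, 0 of 13 member probes. On the whole array 742 of 24406 probes did so, which is 3.04%, counting probes that either array of the comparison detected. Against siRNA negative control the count was 0 of 13 again, beside 7.26%. The median log2 difference of the 12 member probes detected on all arrays was 0.02, beside -0.03 over all 21239. With siGRB2 against siRNA negative control, where 2 of 12 member probes were at least 2-fold lower and 0 higher, the medians were -0.01 for the members and 0.15 for all probes. That shift of the whole array turned to -0.15 under a median shift. Against Pre-miR negative control none of the 12 reached 2-fold with siGRB2, where 2.94% of all probes did. The negative controls also stayed within 2-fold of each other for all 12 probes, while 9.16% of all probes did not, nearly the share found between siGRB2 and its control.

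**Figure D3:**
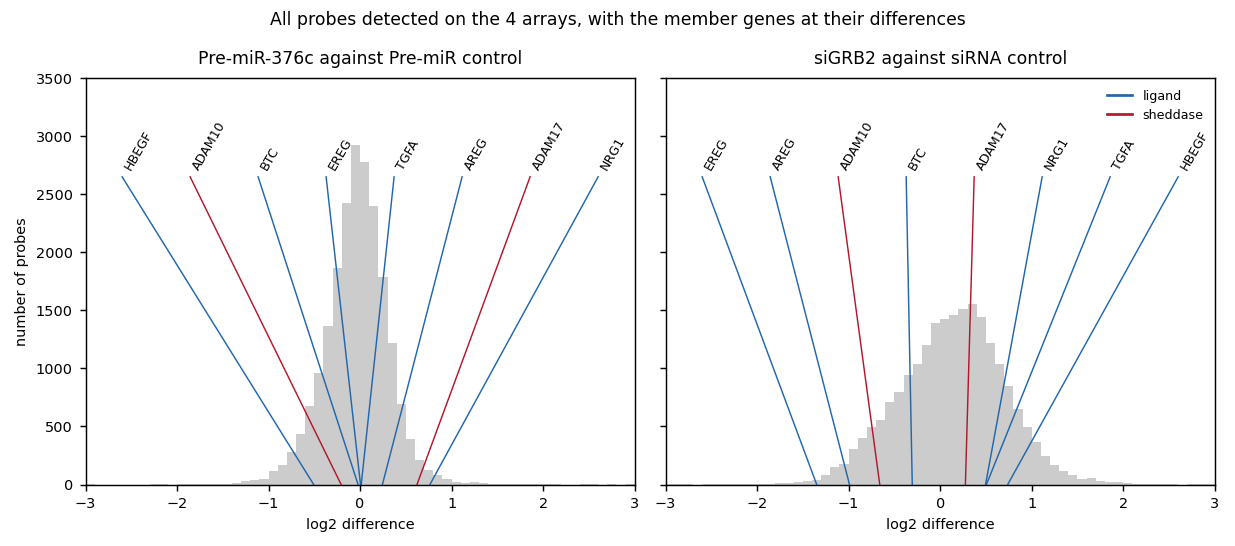
Number of probes (vertical axis) by log2 difference (horizontal axis, bins of 0.1, values past 3 in the end bins) for the 21239 probes detected on all 4 arrays, with a line from each member gene's name to its difference, the mean over its probes where it has 2. EREG and AREG lie in the lower tail with siGRB2, and NRG1 and ADAM17 in the upper tail with Pre-miR-376c.

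How the members sorted over the arrays can be set beside all probes in the same way. The array of siRNA negative control was the highest of the 4 for 6 of the 12 member probes (AREG, EREG, BTC and ADAM10), beside 29.6% of all probes. It was the lowest for 3 (TGFA and HBEGF), beside 45.8%. The genes with 2 probes gave a check on the readings. In the comparison of siGRB2 with siRNA negative control both probes had the same sign for all 4 such member genes, beside 61% of 2710 genes with 2 detected probes, and their differences lay at most 0.23 apart, beside a median of 0.44 over all such genes. For Pre-miR-376c against its own control the sign was shared by 3 of 4, the exception being TGFA near 0, beside 67.3%. The 2 probes of each of these 4 genes were designed to the same transcript accession. The 2710 genes were paired by name, whatever the transcript, so they are not a like yardstick.

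The probes most like the widest-ranging ligand and sheddase were found by the root mean square distance between levels centred on their mean over the 4 arrays, among 17438 and 17437 named probes. For EREG the nearest were ADGRF1 at a distance of 0.02, ST3GAL5 at 0.03 and RAD18 at 0.04. The AREG probes were at ranks 63 and 175, with distances of 0.14 and 0.17. For ADAM10 (A_33_P3243857) they were PPP1R12A and KIN, at 0.01 each, and RIPPLY3 at 0.02, and the nearest other member was BTC at rank 1522. With 4 arrays many probes lie close to any given one, so AREG was near EREG without being its closest match.

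The receptors, regulators and other proteases of these ligands were taken as a list of 37 genes, 36 of them on the array with 61 probes. All 4 arrays detected 46 probes of 29 of these genes. With Pre-miR-376c 0 of 49 probes were at least 2-fold apart from Pre-miR negative control, beside the 3.04% above, and the median log2 difference was -0.21. With siGRB2 6 of 48 were at least 2-fold higher than siRNA negative control, beside 6.7% of all probes, and none was lower, with a median of 0.23.

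EGFR, the receptor of most of the ligands above, had 3 probes detected on every array. Their log2 differences were -0.17, -0.46 and -0.49 with Pre-miR-376c. With siGRB2 they were -0.13, -0.52 and 0.87 against siRNA negative control and -0.44, -0.55 and -0.30 against Pre-miR negative control. The probes of EGFR thus shared a sign in 2 of these 3 comparisons and split against siRNA negative control, where A_33_P3351955 stood apart. They were designed to different transcripts of EGFR, and A_33_P3351955 was the dimmest of them, at -2.87 to -4.04, so they are not repeat readings of 1 transcript. Pre-miR-376c against siRNA negative control split them as well, with 0.14, -0.43 and 0.69. ERBB2, the receptor without a ligand of its own, differed by -0.11 with Pre-miR-376c. With siGRB2 it differed by -0.36 from siRNA negative control and by 0.04 from Pre-miR negative control. ERBB4, which binds NRG1, was not well above background on any array.

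ERBB3, the other receptor of NRG1, was among the 6 probes past 2-fold with siGRB2. Its probe A_23_P349416 read 0.94 with Pre-miR-376c, 0.87 with Pre-miR negative control, 0.94 with siGRB2 and -0.09 with siRNA negative control, a log2 difference of 1.03 to the own control and 0.07 to the other. The probe A_33_P3211569, designed to another transcript of ERBB3, differed by -0.06. ADAM15, a membrane protease of the same family as the sheddases, differed by 1.42 on A_23_P159227 and by -0.48 on A_33_P3380693, which was designed to another transcript. TSPAN14, a tetraspanin that accompanies ADAM10, differed by 1.38 on A_24_P135483 and by 0.36 to 0.81 on its other 3 probes. The proprotein convertases PCSK6 and PCSK7 differed by 1.07 (A_23_P151907) and 1.48 (A_23_P64214), and their other probes by 0.77 and 0.45, that of PCSK6 being designed to another transcript.

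ERBB3 A_23_P349416 and PCSK6 A_23_P151907 were close to the limit and under 2-fold after other scalings, at 0.72 and 0.76 with a median shift and at 0.95 and 0.99 in the deposited log2 values, and so were PCSK6 at 0.73 after quantile normalization and ERBB3 at 0.48 after normexp background correction. All 5 of these probes were lowest with siRNA negative control, and against Pre-miR negative control their log2 differences with siGRB2 ran from -0.60 for ADAM15 to 0.09 for PCSK6. The sixth, NRG2, another neuregulin, was well above background with siGRB2 only, at -4.46, on 1 spot. On the reading used for EGF it was 3.64-fold higher than with siRNA negative control and 5.78-fold higher than with Pre-miR negative control. Neither value is a firm minimum, and the scanner errors of the log2 differences were 0.73 and 0.66. ADAM9, a further sheddase of HB-EGF, differed by -0.04 with Pre-miR-376c. With siGRB2 it differed by -0.54 from siRNA negative control and by -0.03 from Pre-miR negative control. TIMP3, the tissue inhibitor of ADAM17, was not well above background on any array. After normexp background correction the siGRB2 differences to siRNA negative control changed sign for ADAM9 (to 1.01), for ERBB3 A_33_P3211569 (to 0.33) and for 2 TSPAN14 probes (to -0.04 and -0.36), and that of ADAM9 with Pre-miR-376c did so under a median shift (to 0.05). Against Pre-miR negative control the same correction turned ERBB3 A_23_P349416 to -0.44, ERBB2 to -0.69, EGFR A_33_P3351955 to 2.41, TSPAN14 A_24_P135483 to 1.43, PCSK7 A_23_P64214 to 2.44 and ADAM9 to 1.5, and raised PCSK6 A_23_P151907 to 3.02. These normexp changes with siGRB2 came with the move of that array's levels toward 0 under the correction.

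**Figure D4:**
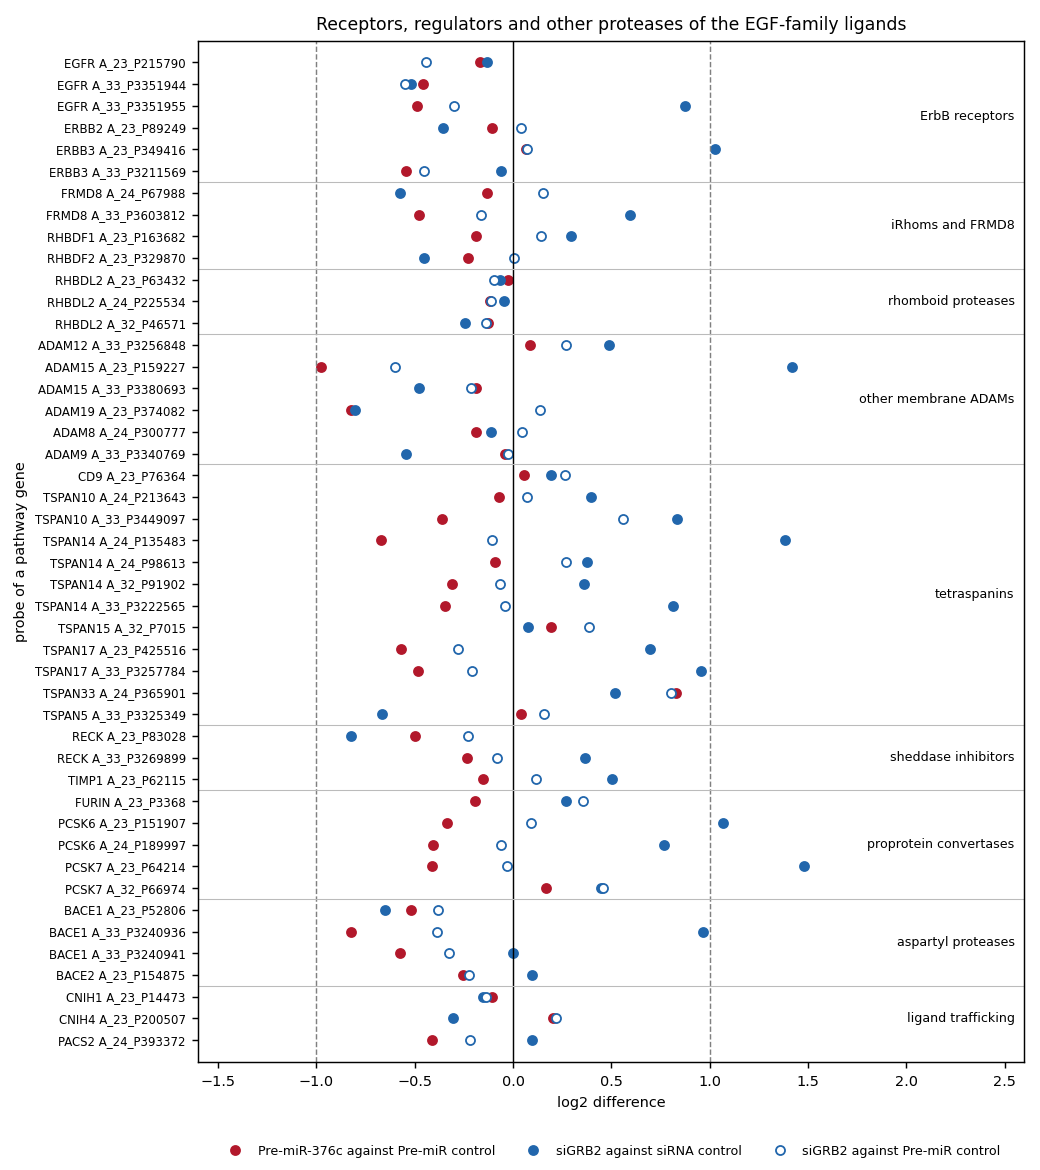
Log2 difference (horizontal axis) of the 46 pathway probes detected on all 4 arrays (vertical axis, by class) for Pre-miR-376c (red) and siGRB2 (blue, filled) against their own controls and for siGRB2 against Pre-miR negative control (blue, open), with dashed lines at 2-fold. The 5 filled blue points past 2-fold are ERBB3, ADAM15, TSPAN14, PCSK6 and PCSK7, and none of the open points is past it.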

How the data were processed

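Agilent Feature Extraction (10.7.3.1 in the file headers) gave the spot intensity, its error and quality flags, and the authors deposited these intensity values for each of the 4 arrays, together with a log2 table shifted to the 75th percentile in GeneSpring GX. That deposited log2 table was used as an alternative. For 99.45% or more of the probes it matched the values computed here, with flagged spots kept, up to a constant per array of 0.38 to 0.46. The median shift and the 75th percentile over probes detected on all 4 arrays likewise move every probe of an array by a constant. These alternatives test where an array is set to 0 and do not read a probe anew. Log2 processed intensity minus the array's 75th percentile over non-control spots was computed in Python 3.11.15 (pandas 2.3.3, numpy 2.4.6). The alternatives by quantile normalization and by normexp (offset 50) used limma 3.58.1 under R 4.3.3. Outlier-flagged spots, 289 to 329 on an array, were dropped. Comparisons took probes that 1 of the arrays detected at least, and counted those past 2-fold. All 4 arrays lay on 1 slide. Accessions gave RefSeq names (GRCh38.p14) to 25422 probes (74.5%). The array design is annotated on GRCh37, so no coordinates of probes or gene bodies are given, and those of the printed sequences are of GRCh38.p14. The members and gene lists were chosen with earlier results of these data known. Named genes were all members, GRB2, EGFR, ERBB2, ERBB3, ADAM9, TIMP3, pathway genes with a probe past 2-fold while detected on both arrays, and the 3 probes nearest the widest-ranging ligand and sheddase. ERBB4 and NRG2 were added after their values were seen. The calling step was tested on simulated data with less spread between arrays than the negative controls showed, so that test gives no rate of false calls here. Protein features had been planned and were not computed.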

Additional observations from a re-analysis of the deposited data

How the results depend on the processing

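No paired analysis was possible because only 1 array exists for any condition. The count of member probes at least 2-fold apart with Pre-miR-376c stayed at 0 under all alternatives except a 1.5-fold limit, where it was 4. All 4 were higher, namely both NRG1 probes, ADAM17 and the EGF value that is no firm minimum. At that limit 11.2% of all 24406 probes were apart in either direction, 1029 higher and 1715 lower. For siGRB2 the count of 2 became 3 under a median shift (beside 11.5% of all probes), 1 after quantile normalization (8.44%) and with the mean of a gene's probes (6.79% of genes), 0 against the other negative control (2.94%), the mean of both controls (2.57%) and a 3-fold limit (2.15%), 7 at 1.5-fold (33.8%) and 10 after normexp background correction (64.1%, with a median log2 difference of 1.03). Over all probes siGRB2 had 1567 higher and 727 lower, but 640 and 2042 under a median shift, which moved the median from 0.15 to -0.15, and 798 and 1175 after quantile normalization. The log2 difference of EREG with siGRB2 ranged from -2.02 to -0.60, that of the AREG probes from -2.07 to -0.34, and that of the NRG1 probes from 0.07 to 1.83. The ends at -2.02, -2.07 and 1.83 were those after normexp background correction. The causes were not tested. Dim probes limit EGF and EPGN, and 1 array per condition limits every value.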

Other observations

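The protein-coding neighbours of the ligand genes on chromosome 4 run in the order CXCL3, CXCL2, MTHFD2L, EPGN, EREG, AREG, BTC, PARM1, RCHY1 and THAP6 in the RefSeq table, and their values were looked at after those of EREG and AREG were known. CXCL3, a chemokine that attracts neutrophils, read -3.87 with Pre-miR-376c, -4.10 with Pre-miR negative control, -4.89 with siGRB2 and -4.39 with siRNA negative control (A_24_P183150). It was lowest with siGRB2, as EREG and AREG were, with log2 differences of -0.50 against siRNA negative control and -0.79 against Pre-miR negative control. CXCL2, a related chemokine, read -0.97, -1.20, -1.67 and -1.11 in the same order on A_23_P315364, again lowest with siGRB2, whereas its probe A_24_P257416 read -2.29, -2.17, -2.64 and -2.95 and was lowest with siRNA negative control. Both CXCL2 probes were lower with siGRB2 than with Pre-miR negative control, by log2 differences of -0.47 and -0.46, and they differed in sign against siRNA negative control, with -0.56 and 0.31. RCHY1 was also lowest with siGRB2, at -3.20, with a log2 difference of -0.31 to siRNA negative control. PARM1 was well above background only with siRNA negative control, at -5.46. MTHFD2L was dim and read -6.11 with Pre-miR-376c, -6.46 with Pre-miR negative control and -5.90 with siGRB2, where it was highest. With siRNA negative control it read -6.07, not well above background. THAP6 was highest with siGRB2, at -0.10, though its difference to siRNA negative control went from 0.30 to -0.01 under a median shift, and BTC lay between, so the order of the arrays was not shared along the whole stretch. After normexp background correction the differences of CXCL3, RCHY1 and both CXCL2 probes against Pre-miR negative control changed sign with siGRB2, to 0.90 or more, and so did those against siRNA negative control of CXCL3 (to 3.29), RCHY1 (to 2.21) and CXCL2 A_23_P315364 (to 0.77), so these probes were then not lowest with siGRB2. That correction drew levels on the siGRB2 array toward 0 and so raised dim probes, with a median log2 difference to siRNA negative control of 1.03. Without it, siGRB2 was the lowest array for 15.2% of all probes detected on all 4 arrays.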
